A study of Homo sapiens with 3 samples.

Results

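PAX8 is a paired-box transcription factor that marks the secretory cells of the fallopian tube and stays on in most high-grade serous ovarian cancers, where it is used as a diagnostic marker. It binds DNA and holds up genes of the Müllerian duct lineage, among them genes of adhesion and of the secreted products of the serous epithelium. The cells described here are the OVCAR3 cells that still carried PAX8 after treatment with a RAC1 inhibitor, alone or with an EZH2 inhibitor. They were chosen by their PAX8 counts: a kept cell of a treated library with 15000 or more UMIs (unique molecular identifiers, 1 per captured RNA molecule) and 3 or more UMIs of PAX8. They are called PAX8-kept cells below and are set against the PAX8-0 cells, those of the same library and depth limit with 0 UMIs of PAX8. There were 2687 PAX8-kept cells among 12330 treated cells of that depth, and among 25985 kept cells in all 3 libraries.

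OVCAR3 is an established line of high-grade serous ovarian cancer, and each library is 1 culture of it collected after 48 hours. The DMSO library received solvent only, RAC1i received NSC23766, which blocks activation of the small GTPase RAC1, and Combo received NSC23766 with GSK126, an inhibitor of the histone methyltransferase EZH2. The treated libraries thus share NSC23766. With 1 library per condition no comparison here has a replicate, so no test was run and no p-value is given. Every interval is a 95% interval that covers the counting error of UMIs or cells only, and cells of 1 culture are not replicates of a treatment.

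Levels are given in CPM: a gene's UMIs, added up over all cells of 1 class, per 1000000 UMIs of the class. The classes were deep, with 54820838 UMIs in the PAX8-kept and 85614799 in the PAX8-0 cells of RAC1i, 47917905 and 83808772 in Combo, and 184576840 in all DMSO cells of the same depth limit. The libraries shared 15 to 23 kept barcodes in pairs, and 1 to 3 of the barcodes with 3 or more UMIs of PAX8. As all cells were OVCAR3, no cell type that should lack a gene was present, and the part of free RNA in the low counts was not tested. Of the 11 blood and endothelial markers, 9 were under 1 CPM in every class and in DMSO, and so were 9 of 12 ciliated cell markers. KRT7 and MUC16, which mark these carcinomas, were present in every class (values below).

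PAX8-kept cells made up 22.5% (21.5 to 23.5) of the deep RAC1i cells, or 1496 of 6642, and 20.9% (19.9 to 22.0) of the deep Combo cells, or 1191 of 5688. In DMSO the same limit was met by 5246 of 5423 cells, 96.7% (96.2 to 97.2), and only 21 cells had 0 UMIs of PAX8. PAX8-0 cells numbered 3091 (46.5%) in RAC1i and 2696 (47.4%) in Combo, and the remaining 2055 and 1801 cells had 1 or 2 UMIs. A cell with more UMIs has more chances to show PAX8. With every cell cut at random to 15000 of its UMIs, 10.2% (9.46 to 10.9) of RAC1i cells, 8.42% (7.71 to 9.17) of Combo cells and 83.3% (82.2 to 84.2) of DMSO cells had 3 or more.

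**Figure D1:**
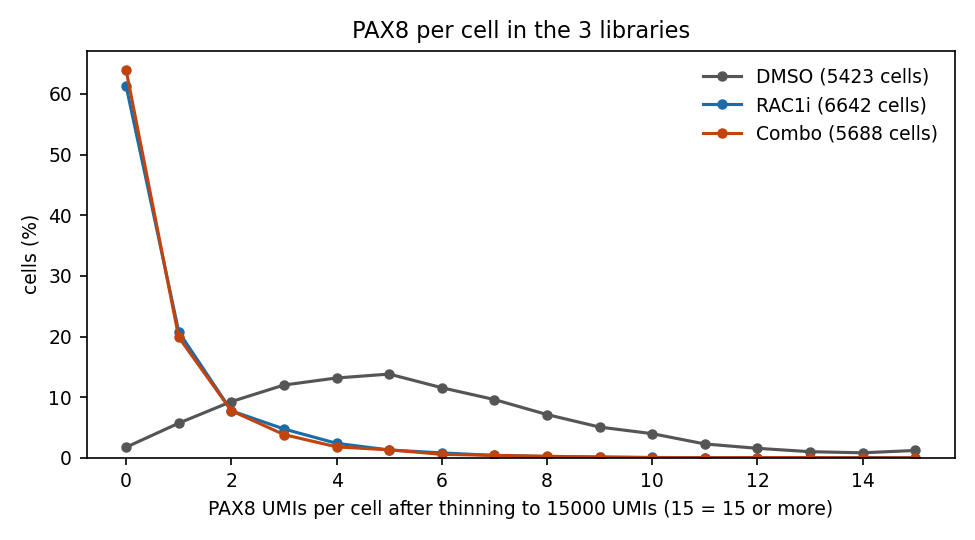
Share of cells (vertical axis, percent) by the number of PAX8 UMIs left after thinning every cell to 15000 UMIs (horizontal axis), 1 line per library. DMSO cells peak at 5 UMIs, whereas 61.3% of RAC1i and 63.9% of Combo cells sit at 0 and both treated lines thin out to the right without a separate second peak.

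Keeping PAX8 did not mean keeping all of it. The rule itself fixes that PAX8 is high in these cells, so its level is a description: 161 CPM (158 to 165) in RAC1i and 148 CPM (144 to 151) in Combo, against 363 CPM (360 to 366) over all deep DMSO cells. That is 44.4% and 40.7% of the DMSO level. The median thinned count was 2 in the PAX8-kept cells of either library, and 201 (13.4%) and 158 (13.3%) of them reached the DMSO median of 5. Just inside the limit, cells with 3 UMIs numbered 430 in RAC1i and 337 in Combo with 86.4 and 79.4 CPM of PAX8. Just outside it, cells with 2 UMIs numbered 656 and 577 with 59.2 and 56.3 CPM.

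PAX8-kept cells also had more UMIs, with medians of 34979 and 38662 against 25100 and 29220 in PAX8-0 cells of RAC1i and Combo. They showed more genes at equal depth as well, with thinned medians of 3916 and 3923 genes against 3594 and 3579, and 4086 in DMSO. Their median share of mitochondrial UMIs was 1.91% and 1.70%, against 1.23% and 1.20% in PAX8-0 cells and 6.34% in DMSO. Doublets were not called, and their part in the contrast described next was not tested. The contrast was recomputed at other depths. With cells above 40000 UMIs left out, 2180 genes of RAC1i were higher and 1029 lower in PAX8-kept cells, and with PAX8-0 cells weighted to the depth of the PAX8-kept cells 1821 were higher and 953 lower, against 1989 and 902 as counted below. With the UMIs of mitochondrial genes left out, 2075 were higher and 865 lower.

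The next question was which other genes went with PAX8. Of 5732 genes that reached 20 CPM in either class of RAC1i, 1989 (34.7%) were at least 25% higher in PAX8-kept than in PAX8-0 cells and 902 (15.7%) at least 20% lower, the same fold either way. These limits are meant by higher and lower below. A gene under 20 CPM in 1 class was measured only through the other class, so for such genes the 20 CPM limit favors that direction. In Combo 2082 of 5770 (36.1%) were higher and 826 (14.3%) lower. Over the 5582 genes measured in both libraries, 1734 (31.1%) were higher in both, 725 (13.0%) lower in both, and 0 passed the limit in opposite directions. The libraries come from separate cultures. Their log2 ratios correlated across genes with Pearson's r = 0.97 and Spearman's rho = 0.97 over 5582 genes. The genes are not independent of each other, and the libraries share line, kit, gene lengths, NSC23766 and the PAX8 rule that made the classes. The median gene was higher in PAX8-kept cells by 0.14 (RAC1i) and 0.16 (Combo) on the log2 scale. Scaled by TMM, which sets the typical gene to no change, the split turned to 1312 higher and 1449 lower genes in RAC1i and 1268 and 1435 in Combo. Changes below are to be read against that shift.

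**Figure D2:**
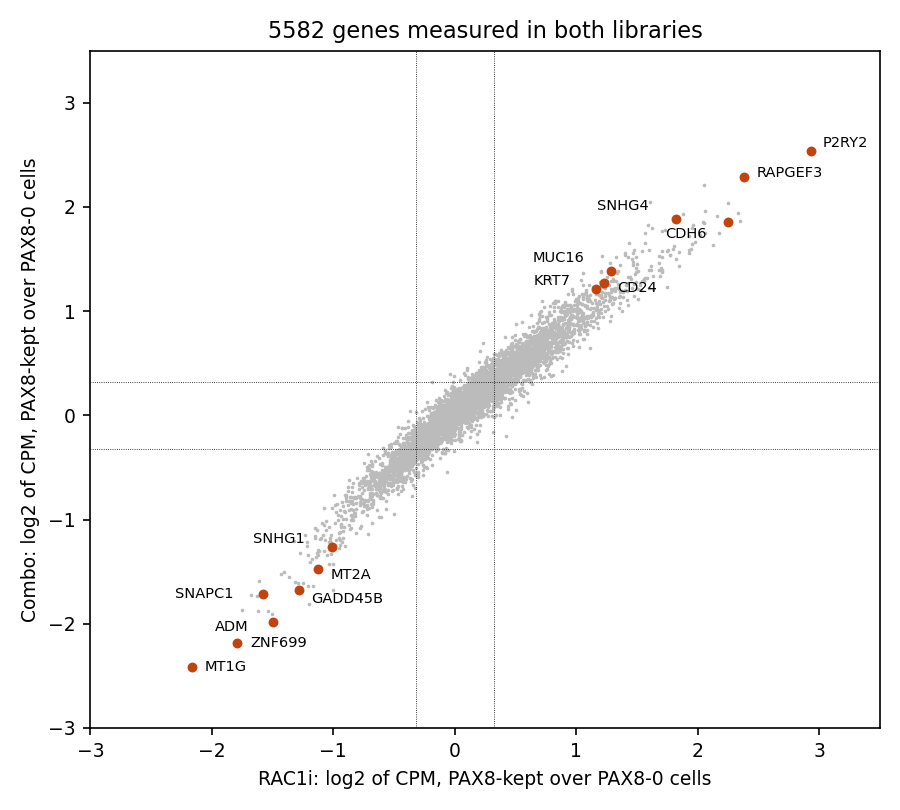
Each point is 1 of 5582 genes, with the log2 ratio of its CPM in PAX8-kept over PAX8-0 cells in RAC1i (horizontal) and Combo (vertical), and dotted lines mark a CPM 25% higher or 20% lower. The genes lie along the diagonal, from MT1G at the lower left to P2RY2 at the upper right, and no point lies past the lines in opposite directions.

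The 12 genes with the largest rises in both libraries were P2RY2, RAPGEF3, TRIM56, AFAP1, IL1R1, MCRIP2, ZFYVE21, TSPAN14, RPUSD1, CDH6, MKNK2 and EVA1B. P2RY2, a G protein-coupled receptor for extracellular ATP and UTP, had 26.8 CPM in PAX8-kept and 3.52 CPM in PAX8-0 cells of RAC1i, a ratio of 7.62 (6.73 to 8.66). In Combo it had 21.4 and 3.69 CPM, a ratio of 5.80 (5.10 to 6.60). With 27.8 CPM in DMSO, P2RY2 in the PAX8-kept cells stood at 96.3% and 76.8% of its DMSO level and in PAX8-0 cells at 12.6% and 13.2%. At equal depth, 30.0% (27.7 to 32.4) of PAX8-kept RAC1i cells had a P2RY2 UMI, against 4.79% (4.06 to 5.60) of PAX8-0 and 31.5% (30.2 to 32.7) of DMSO cells. Without thinning those shares were 51.5%, 7.96% and 54.9%.

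RAPGEF3 encodes EPAC1, an exchange factor for RAP GTPases that is switched on by cyclic AMP. It had 27.2 and 5.22 CPM in RAC1i, a ratio of 5.20 (4.68 to 5.80), and 21.9 and 4.47 CPM in Combo, a ratio of 4.88 (4.34 to 5.51), with 63.9 CPM in DMSO. AFAP1, an actin filament-associated adaptor of SRC, was 4.75-fold (4.39 to 5.15) and 4.11-fold (3.79 to 4.46) higher. IL1R1, the signaling receptor of interleukin-1, was 4.18-fold (3.75 to 4.66) and 3.88-fold (3.46 to 4.36) higher. MKNK2, a kinase that phosphorylates the translation factor eIF4E, was 4.12-fold (3.85 to 4.41) and 3.62-fold (3.39 to 3.86) higher. All 12 were under 20 CPM in the PAX8-0 cells of both libraries, so they were measured only through the PAX8-kept cells, where they are high. All 12 stood below DMSO in PAX8-0 cells, and 11 of them stood below it in PAX8-kept cells too. RPUSD1, a pseudouridine synthase, was the exception, with 28.0 and 33.0 CPM in the PAX8-kept cells of RAC1i and Combo against 23.1 CPM in DMSO.

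CDH6, cadherin 6, is an adhesion protein of the kidney and serous ovarian cancer. It had 50.3 CPM in PAX8-kept and 10.6 CPM in PAX8-0 cells of RAC1i, a ratio of 4.76 (4.41 to 5.13), and 35.4 and 9.76 CPM in Combo, a ratio of 3.63 (3.34 to 3.95). Yet DMSO cells had 589 CPM, so the PAX8-kept cells held 8.54% and 6.02% of it. A large ratio between the classes therefore did not mean a level near that of DMSO.

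The 12 largest falls were MT1G, ZNF699, RASL11A, AC100800.1, ZNF155, TMEM45A, ZFP30, SNAPC1, ZNF34, ZNF571, ADM and ZNF569. SNAPC1, a subunit of the complex that starts transcription of small nuclear RNA genes, had 154 CPM in PAX8-kept and 462 CPM in PAX8-0 cells of RAC1i. It was thus 2.99-fold (2.92 to 3.06) lower, and in Combo, with 97.0 and 319 CPM, 3.29-fold (3.19 to 3.39) lower, while DMSO had 21.3 CPM. ADM, the vasodilator peptide adrenomedullin, was 2.82-fold (2.73 to 2.92) and 3.97-fold (3.78 to 4.17) lower, with 73.8 and 37.6 CPM in PAX8-kept cells and 3.70 CPM in DMSO. TMEM45A, a membrane protein, was 3.07-fold (2.90 to 3.25) and 3.68-fold (3.39 to 4.01) lower. All 12 were far above DMSO in PAX8-0 cells, and in PAX8-kept cells they lay between the PAX8-0 and the DMSO levels. MT1G, ZNF699, RASL11A and ZNF155 reached 20 CPM in both libraries through the PAX8-0 cells alone.

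**Figure D3:**
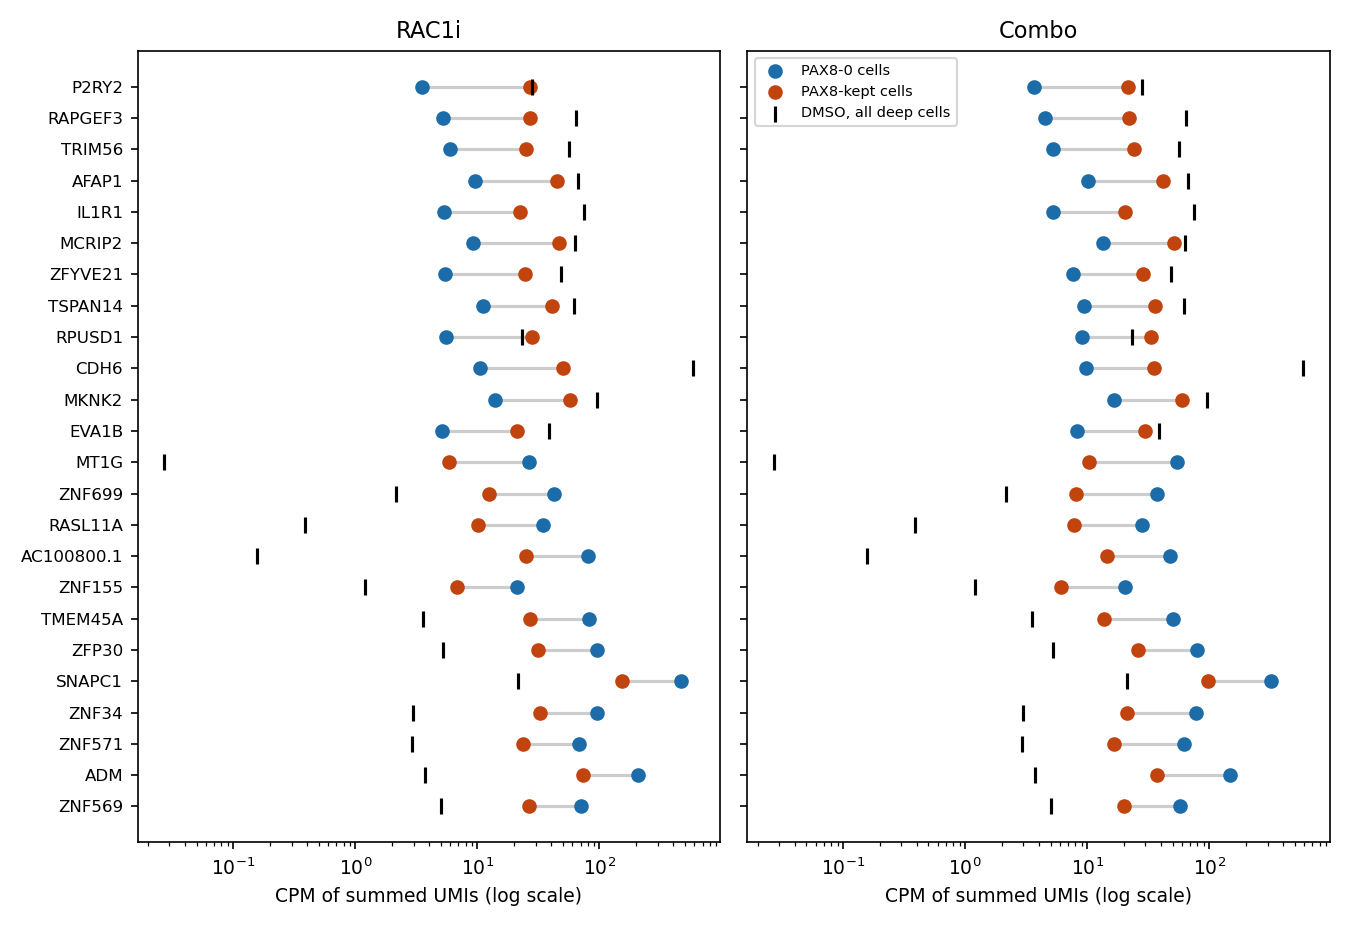
Levels in CPM (horizontal, log scale) of the 12 largest rises (top) and 12 largest falls (bottom) in PAX8-0 cells (blue), PAX8-kept cells (red) and all deep DMSO cells (black bar), with RAC1i on the left and Combo on the right. The red point lies on the DMSO side of the blue point for every gene, and past the DMSO bar only for RPUSD1.

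Of the 12 largest falls, 6 are zinc finger genes, most of which encode KRAB repressors that silence transposable elements and other genes. ZNF699 had 12.3 and 42.6 CPM in RAC1i, 3.46-fold (3.18 to 3.76) lower, and 8.12 and 37.0 CPM in Combo, 4.56-fold (4.10 to 5.08) lower, with 2.16 CPM in DMSO. ZFP30 was 3.06-fold (2.90 to 3.22) and 3.004-fold (2.83 to 3.19) lower. This group was looked at after those names were seen. Of 568 ZNF and ZFP genes, 104 reached 20 CPM in both libraries, some of them through the PAX8-0 cells alone, as ZNF699 and ZNF155 did. The medians were -0.24 over the 110 genes that reached the limit in RAC1i and -0.15 over the 107 in Combo. They turned positive with no minimum, so no direction is given for the group. ZNF706, a small zinc finger protein, went the other way, 2.46-fold (2.36 to 2.57) and 2.44-fold (2.34 to 2.54) higher.

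Measured genes of the secretory and serous lineage, to which PAX8 belongs, were mostly higher in PAX8-kept cells. Of 35 genes, 24 were measured, and 17 were higher and 3 lower in both libraries, against 31.1% and 13.0% of all genes, with medians of 0.61 (RAC1i) and 0.49 (Combo). Members under 20 CPM in PAX8-0 cells, as MECOM and CDH6 were, are counted only through the PAX8-kept cells, where they are high. MUC16, the CA125 antigen, had 68.6 and 28.0 CPM in RAC1i, a ratio of 2.45 (2.32 to 2.58), and 59.6 and 22.8 CPM in Combo, a ratio of 2.62 (2.47 to 2.77), with 142 CPM in DMSO. KRT7, keratin 7, had 746 and 334 CPM in RAC1i and 952 and 410 CPM in Combo, ratios of 2.24 (2.20 to 2.27) and 2.32 (2.29 to 2.35), with 1194 CPM in DMSO. EMX2, a homeobox factor of the Müllerian duct, was 2.04-fold (1.94 to 2.15) and 1.99-fold (1.89 to 2.10) higher. MECOM, a zinc finger factor that is often amplified in serous ovarian cancer, was 1.72-fold (1.60 to 1.86) and 2.06-fold (1.90 to 2.24) higher. WT1, a serous lineage factor, fell under the 20 CPM limit, with 13.1 and 8.78 CPM in RAC1i and 10.1 and 6.83 CPM in Combo. WFDC2, the HE4 antigen, differed by less than the limit, with ratios of 1.21 (1.20 to 1.22) and 1.15 (1.14 to 1.16).

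Other genes of the lineage did not go with PAX8. SOX17, which acts beside PAX8 in these tumors, had 107 CPM in DMSO, but only 10.4 CPM in PAX8-kept and 8.80 CPM in PAX8-0 cells of RAC1i, and 10.4 and 8.997 CPM in Combo. The ratios were 1.19 (1.06 to 1.32) and 1.15 (1.03 to 1.29), and the PAX8-kept cells closed 1.66% and 1.40% of the gap between PAX8-0 and DMSO cells. At equal depth 14.5% (12.8 to 16.4) of PAX8-kept and 11.7% (10.6 to 12.9) of PAX8-0 cells of RAC1i had a SOX17 UMI, against 72.9% (71.7 to 74.1) in DMSO, and without thinning 26.8%, 19.9% and 89.3%. FOLR1, the folate receptor, had 20.6 and 23.8 CPM in RAC1i and 19.9 and 23.0 CPM in Combo, with 50.7 CPM in DMSO. LYPD1, a small membrane-anchored protein, was 1.54-fold (1.47 to 1.62) and 1.51-fold (1.43 to 1.60) lower in PAX8-kept cells. OVGP1, the oviductal glycoprotein of secretory tube cells, had 5.60 and 13.4 CPM in RAC1i and 3.42 and 9.09 CPM in Combo, and only 0.146 CPM in DMSO. Its level was thus 2.39-fold (2.11 to 2.72) and 2.66-fold (2.24 to 3.16) lower where PAX8 was kept. OVGP1 fell under the 20 CPM limit in every class, so it is not among the genes counted as lower.

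The genes that the study used as marks of stemness split in the same way. CD24, a surface glycoprotein, had 372 and 158 CPM in RAC1i and 343 and 143 CPM in Combo, ratios of 2.35 (2.30 to 2.40) and 2.41 (2.35 to 2.46), and reached 86.4% and 79.7% of the 431 CPM in DMSO. SOX2, a pluripotency factor, had 14.5 and 15.9 CPM in RAC1i and 12.3 and 14.3 CPM in Combo, with 78.2 CPM in DMSO, and its ratio turned above 1 in both libraries once PAX8-0 cells were weighted to the depth of PAX8-kept cells. ALDH1A1, an aldehyde dehydrogenase, had 2.12 and 2.37 CPM in RAC1i and 1.82 and 2.08 CPM in Combo, with 19.3 CPM in DMSO. Its fold lower in PAX8-kept cells, 1.12 (0.888 to 1.42) and 1.14 (0.879 to 1.497), had an interval that included 1. Of the 11 genes of this list, only 2 were high enough to be measured in the treated cells.

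Most measured epithelial junction and keratin genes were higher in PAX8-kept cells. Of 20 genes, 17 were measured, 13 were higher in both libraries, against 31.1% of all genes, and none lower in both, with medians of 0.61 and 0.76. Members under 20 CPM in PAX8-0 cells, as CDH6 was, are counted only through the PAX8-kept cells, where they are high. CDH6, EPCAM, CLDN3, CLDN4 and KRT7 belong to the secretory and serous lineage list too, so the counts of these lists are not separate. CLDN3, a tight junction claudin, had 210 and 91.0 CPM in RAC1i and 312 and 119 CPM in Combo, against 331 CPM in DMSO. CDH1, E-cadherin, was 2.30-fold (2.15 to 2.46) and 2.03-fold (1.88 to 2.19) higher. EPCAM differed by 1.08-fold (1.06 to 1.10) and 1.15-fold (1.13 to 1.17), under the limit, and its direction in RAC1i flipped under TMM.

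Many genes encoded in mitochondrial DNA and some of cholesterol synthesis were higher. Of the 13 proteins encoded in mitochondrial DNA, 12 were measured and 8 were higher in both libraries, against 31.1% of all genes, and none lower, with medians of 0.59 and 0.39. MT-CO3, a subunit of cytochrome c oxidase, had 3207 and 1903 CPM in RAC1i and 2636 and 1739 CPM in Combo, but 12703 CPM in DMSO. Of 23 genes of cholesterol synthesis, 14 were measured, 7 higher in both and 1 lower in both, against 31.1% and 13.0% of all genes, with medians of 0.38 and 0.35. SQLE, squalene epoxidase, was 1.77-fold (1.66 to 1.90) and 2.14-fold (2.01 to 2.27) higher, and ACAT2 was 1.29-fold (1.20 to 1.38) lower in RAC1i and 1.29-fold (1.21 to 1.38) lower in Combo. In RAC1i SQLE had 32.3 and 18.2 CPM, so there it was measured only through the PAX8-kept cells. NEAT1, the RNA that scaffolds paraspeckles, had 4283 and 2378 CPM in RAC1i, 4294 and 2001 CPM in Combo and 10147 CPM in DMSO. KCNQ1OT1, an imprinted antisense RNA, had 47.4 and 54.7 CPM in RAC1i, 56.3 and 66.8 CPM in Combo and 254 CPM in DMSO.

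The 10 genes of the development and differentiation cluster that the study described were all lower in PAX8-kept cells of both libraries, against 13.0% of all genes, with medians of -0.98 and -1.19. That list was drawn from these same samples, so it is no independent evidence of a direction, and 6 of its genes (MT2A, MT1X, MT1F, NFKBIA, JUNB and GADD45B) are counted in other lists here too. GADD45B, a stress-induced growth arrest gene, had 287 CPM in PAX8-kept and 700 CPM in PAX8-0 cells of RAC1i, 2.44-fold (2.40 to 2.48) lower. In Combo it had 209 and 671 CPM, 3.21-fold (3.14 to 3.27) lower, and in DMSO 13.0 CPM. ID1, an inhibitor of helix-loop-helix factors, was 1.70-fold (1.69 to 1.71) and 1.75-fold (1.73 to 1.76) lower. NFKBIA, the inhibitor of NF-kB that NF-kB itself induces, was 2.04-fold (2.01 to 2.06) and 2.31-fold (2.28 to 2.35) lower.

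Metallothioneins bind zinc and copper and are switched on by metal through the factor MTF1. MT2A was among the most abundant RNAs of the treated cells, with 7226 CPM in PAX8-0 and 3314 CPM in PAX8-kept cells of RAC1i, 2.18-fold (2.17 to 2.19) lower. In Combo it had 11094 and 3992 CPM, 2.78-fold (2.77 to 2.79) lower, while DMSO had 132 CPM. MT1G had 26.4 and 5.89 CPM in RAC1i, 4.48-fold (3.98 to 5.05) lower, and 54.7 and 10.2 CPM in Combo, 5.34-fold (4.87 to 5.88) lower, with 0.0271 CPM in DMSO. All 6 measured genes of the 9 metallothioneins and zinc transporters were lower in both libraries, against 13.0% of all genes, with medians of -0.95 and -1.18. MT1G is counted among the 6 only through the PAX8-0 cells, as it was under 20 CPM in PAX8-kept cells. At equal depth 4.34% (3.37 to 5.50) of PAX8-kept and 10.7% (9.64 to 11.9) of PAX8-0 RAC1i cells had an MT1G UMI, and 0.0369% (0.00447 to 0.133) of DMSO cells, and without thinning 8.29%, 14.4% and 0.0922%.

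As metallothionein genes moved together, the 250 bases upstream of MT2A and MT1X, the pair of metallothioneins with the most UMIs, are shown from RefSeq (GRCh38.p14, plus strand), with matches to the core of the metal response element, TGCNCNC on either strand, in capitals. The stretch of MT2A is chr16:56608334-56608583 and that of MT1X is chr16:56682220-56682469.
MT2A: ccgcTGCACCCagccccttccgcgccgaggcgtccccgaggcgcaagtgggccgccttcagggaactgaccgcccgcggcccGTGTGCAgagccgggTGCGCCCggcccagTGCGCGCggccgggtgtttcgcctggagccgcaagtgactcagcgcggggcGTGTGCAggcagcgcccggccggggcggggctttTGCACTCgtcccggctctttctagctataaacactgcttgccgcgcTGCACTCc
MT1X: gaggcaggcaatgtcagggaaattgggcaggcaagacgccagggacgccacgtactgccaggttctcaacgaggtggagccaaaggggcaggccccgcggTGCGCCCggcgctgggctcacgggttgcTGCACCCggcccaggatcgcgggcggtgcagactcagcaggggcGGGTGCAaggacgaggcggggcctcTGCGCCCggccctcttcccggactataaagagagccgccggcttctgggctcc
The MT2A stretch held 7 matches and the MT1X stretch 4, overlaps included. Among the other genes of the list, MT1H had 8, the zinc exporter gene SLC30A1 had 1, and both stretches of the zinc importer gene SLC39A10 had 0. Of 35116 such stretches in the table, 49.1% held 1 or more, 1.77% held 4 or more and 0.0854% held 7 or more. A match of these letters is a description, not a site that was shown to be used. RefSeq's table held 5 of the 9 genes of the list.

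Most measured genes of the chemokine and NF-kB list and of the immediate early list were lower as well. Of 22 chemokines and NF-kB targets, 13 were measured in both libraries, 8 were lower and 3 higher in both, against 13.0% and 31.1% of all genes. The medians were -0.47 over the 17 genes measured in RAC1i and -0.70 over the 13 of Combo. In that list CXCL1, CXCL2, CXCL8, IL6, IER3, UCA1, CA2, FLG, CD70 and CLDN1 were also top genes of the immune response cluster of the study. That cluster was drawn from these same samples, so these genes are no independent evidence of a direction. TNF had 40.6 and 99.0 CPM in RAC1i and 20.8 and 63.4 CPM in Combo, 2.44-fold (2.33 to 2.56) and 3.05-fold (2.85 to 3.27) lower, with 2.06 CPM in DMSO. IL6 was 1.92-fold (1.86 to 1.98) and 2.08-fold (1.98 to 2.18) lower. CXCL1 differed less, with 381 and 448 CPM in RAC1i, 197 and 258 CPM in Combo and 45.9 CPM in DMSO. FLG, filaggrin, a structural protein of skin that was put in that list though it is no NF-kB effector, was 2.43-fold (2.33 to 2.53) and 2.76-fold (2.63 to 2.90) higher. Of 20 immediate early and AP-1 genes, 11 were measured in both and 7 were lower in both, against the same 13.0%, among them JUNB, an AP-1 subunit, which was 2.29-fold (2.25 to 2.33) and 2.65-fold (2.60 to 2.71) lower. PPP1R15A, which restarts translation after stress, was 2.42-fold (2.34 to 2.49) and 2.49-fold (2.41 to 2.58) lower. Of the 13 genes of the integrated stress response measured in both, 5 were lower and 1 higher in both, against 13.0% and 31.1% of all genes. PSAT1, of serine synthesis, was the higher one, at 1.67-fold (1.54 to 1.81) and 1.29-fold (1.19 to 1.41) higher. With 21.5 and 12.9 CPM in RAC1i and 20.6 and 15.9 CPM in Combo, it was measured only through the PAX8-kept cells. SNAI1, a repressor of E-cadherin and the only one of 16 mesenchymal markers that could be measured, was 2.31-fold (2.16 to 2.48) and 3.12-fold (2.88 to 3.38) lower. With 18.7 and 43.3 CPM in RAC1i and 15.3 and 47.6 CPM in Combo, it was measured only through the PAX8-0 cells. No direction is given for the mesenchymal markers.

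The hosts of small nucleolar RNAs, whose spliced RNAs are mostly degraded by nonsense-mediated decay, went both ways. Of 17 genes, 9 were lower and 2 higher in both libraries, against 13.0% and 31.1% of all genes. SNHG1 had 568 and 1144 CPM in RAC1i and 374 and 900 CPM in Combo, with 47.5 CPM in DMSO, and was 2.01-fold (1.99 to 2.04) and 2.41-fold (2.37 to 2.45) lower. SNHG4 had 28.6 and 8.08 CPM in RAC1i and 20.2 and 5.45 CPM in Combo, with 51.3 CPM in DMSO, and was 3.53-fold (3.23 to 3.87) and 3.70-fold (3.31 to 4.15) higher. SNHG4 was measured only through the PAX8-kept cells. Cytosolic ribosomal protein genes, looked at after the values were seen, had 1 higher and 22 lower of 82, against the same shares. RPL39L, a variant of RPL39, was the higher one, at 2.45-fold (2.33 to 2.58) and 2.19-fold (2.09 to 2.31), and RPL13A was 1.45-fold (1.43 to 1.46) and 1.44-fold (1.42 to 1.45) lower.

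Groups whose medians lay near that of all genes were those of the cell cycle and of RAC and actin, the latter with 0.09 and 0.10. The 6 measured genes of PRC2 and related factors had medians of -0.09 and -0.04, with 1 higher and none lower in both. RBBP4, a histone-binding subunit of PRC2, was 1.40-fold (1.35 to 1.46) and 1.52-fold (1.46 to 1.59) higher, and KDM6B, a demethylase of the mark that PRC2 sets, was 1.24-fold (1.18 to 1.30) and 1.16-fold (1.10 to 1.23) lower, under the limit. MDM2, the ligase that degrades p53, had 26.7 and 23.8 CPM in RAC1i and 23.8 and 21.1 CPM in Combo, within the limits. WWTR1, the coactivator TAZ, had 84.6 and 79.6 CPM in RAC1i and 86.4 and 71.1 CPM in Combo, and its direction in RAC1i flipped under TMM. The S phase list had medians of 0.16 and 0.10 and the G2 and mitosis list 0.16 and 0.22, and the S phase medians turned negative under TMM scaling. With PAX8-0 cells weighted to the depth of the PAX8-kept cells, the Combo medians of these lists were -0.03 and -0.02. Of 22 S phase genes measured in both, 7 were higher and 1 lower in both, close to the 31.1% of all genes. MCM4, a subunit of the replicative helicase, was 2.10-fold (1.94 to 2.27) and 2.24-fold (2.06 to 2.43) higher, and RRM2, a subunit of ribonucleotide reductase, was 1.39-fold (1.33 to 1.44) and 1.498-fold (1.43 to 1.57) lower. With 26.8 and 12.8 CPM in RAC1i and 26.3 and 11.8 CPM in Combo, MCM4 was measured only through the PAX8-kept cells. CKS1B, a cofactor of cyclin-dependent kinases, was 1.36-fold (1.34 to 1.37) and 1.40-fold (1.38 to 1.42) lower. AURKA, the mitotic kinase, was 1.85-fold (1.78 to 1.92) and 1.88-fold (1.81 to 1.96) higher. RAC1, the target of NSC23766, had 645 and 591 CPM in RAC1i and 623 and 579 CPM in Combo, and its direction flipped under TMM. EZH2, the target of GSK126, had 13.7 and 12.3 CPM in RAC1i and 14.7 and 15.8 CPM in Combo. Among genes of RAC and actin, ARHGAP29, a GTPase-activating protein, was 2.29-fold (2.24 to 2.35) and 2.43-fold (2.36 to 2.49) higher, and ANKRD1, a YAP target, was 2.22-fold (2.15 to 2.29) and 2.23-fold (2.14 to 2.32) lower.

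**Figure D4:**
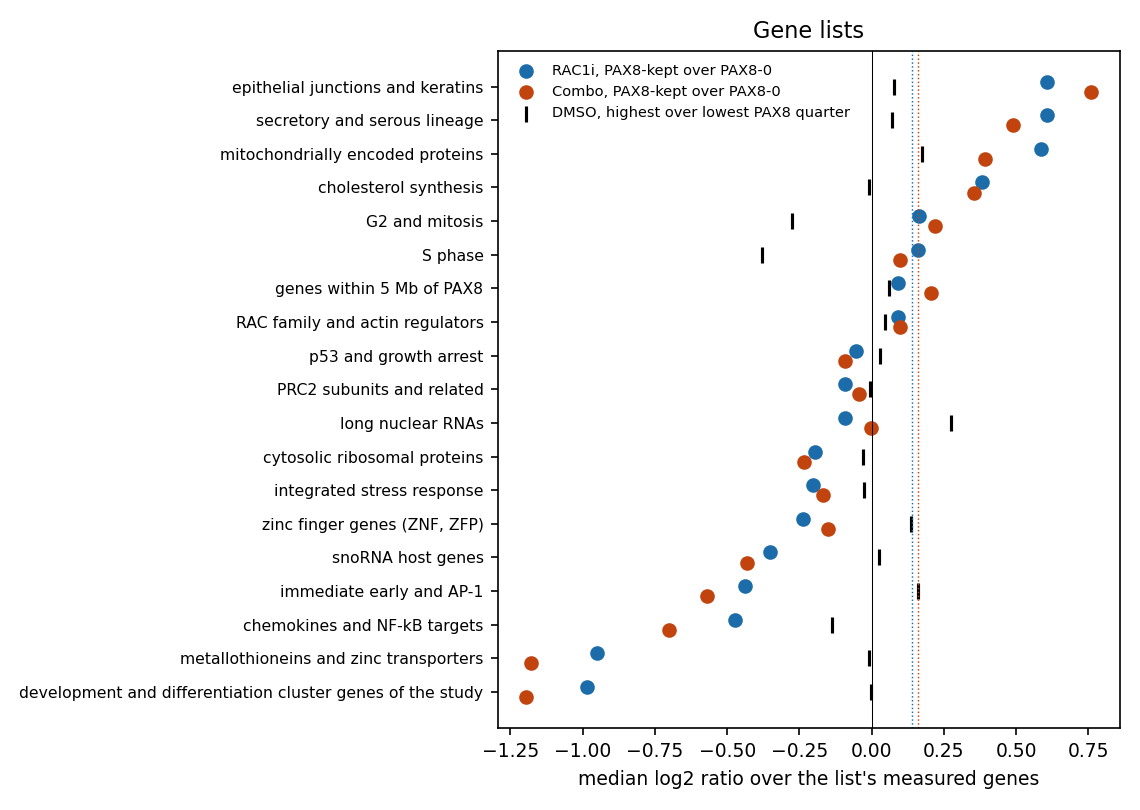
Median log2 ratio over the measured genes of each list with 5 or more (horizontal), for PAX8-kept over PAX8-0 cells in RAC1i (blue) and Combo (red), with dotted lines at the median of all genes (0.14 and 0.16) and black bars for DMSO cells with 7 or more over those with 3 or fewer thinned PAX8 UMIs. Epithelial and lineage lists lie to the right, metallothioneins and the development and differentiation list lie farthest to the left near -1, and the black bars of these lists lie close to 0.

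Fewer genes stood far from DMSO in PAX8-kept than in PAX8-0 cells. Against DMSO, 981 of 6524 genes (15.0%) were at least 2-fold higher and 1759 (27.0%) at least 2-fold lower in PAX8-0 cells of RAC1i, whereas in PAX8-kept cells 680 of 6485 (10.5%) were higher and 884 (13.6%) lower. In Combo 13.7% were higher and 25.4% lower in PAX8-0 cells, and 9.14% higher and 12.5% lower in PAX8-kept cells. These comparisons share the DMSO cells. Genes changed 2-fold from DMSO were also listed in the PAX8-0 cells of 1 treated library and read in the other. The list and the values read share no cell. Both still rest on PAX8-0 cells chosen by the same rule, and the ratios of the 2 libraries correlated closely. A gene low in the PAX8-0 cells of 1 library was thus likely to be higher in the PAX8-kept cells of the other. The shares below are a description and no independent evidence of a direction. Only genes with 20 CPM or more in either class of the library read were counted. A lost gene (below DMSO) under 20 CPM in PAX8-0 cells there was counted only if PAX8-kept cells had 20 CPM or more. For gained genes the same holds the other way, so the shares are in part set by this limit. With no minimum, median log2 ratios were 0.733 (RAC1i) and 0.709 (Combo) over lost genes and -0.405 and -0.417 over gained genes. Of 901 genes that Combo cells had lost, 785 (87.1%) were higher in the PAX8-kept cells of RAC1i and 5 lower, against 34.7% and 15.7% of all genes, with a median of 0.71 against 0.14 for all genes. Of 880 genes that Combo cells had gained, 530 (60.2%) were lower and 18 higher, against 15.7% and 34.7% of all genes, with a median of -0.41. In the other direction, 895 of 1046 genes lost in RAC1i (85.6%) were higher in the PAX8-kept cells of Combo and 9 lower, against 36.1% and 14.3% of all genes, with a median of 0.71 against 0.16. Of 947 genes gained in RAC1i, 574 (60.6%) were lower and 10 higher, against 14.3% and 36.1% of all genes, with a median of -0.41.

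Taken gene by gene, PAX8-kept cells closed a median of 32.0% (quartiles 19.5 to 48.7) of the gap from PAX8-0 to DMSO levels over the lost genes in RAC1i, and 37.7% (21.7 to 56.9) in Combo. These medians rest on the same 20 CPM limit, which left out lost genes that stayed under it in both classes, as SOX17 did. Single genes differed widely: the share closed was 95.8% and 73.3% for P2RY2, 78.4% and 69.7% for CD24, 48.0% and 69.2% for KRT7, 23.2% and 23.3% for EMX2, 6.87% and 4.43% for CDH6, and near 0 for SOX17. Of 143 measured genes at no more than 25% of DMSO in the PAX8-0 cells of both libraries, 135 were higher in the PAX8-kept cells of both, against 31.1% of all genes. These genes were picked for low values in the same PAX8-0 cells. Those under 20 CPM in PAX8-0 cells were measured only through the PAX8-kept cells, so the limit itself favors the higher direction. No conclusion is drawn from this count. The 6 of the 143 that were neither higher nor lower in both libraries were SCD, PHGDH, HMGCS1, SYNE2, CYP51A1 and FBXO2. Of these, SCD, HMGCS1 and CYP51A1 act in lipid and sterol synthesis and PHGDH in serine synthesis. SOX17, at 8.19% and 8.38% of DMSO in PAX8-0 cells, and SOX2 also stayed within the limits. They were not among the 143 because they were under 20 CPM in both classes. PHGDH had 34.8 and 40.8 CPM in RAC1i and 46.4 and 53.3 CPM in Combo, with 319 CPM in DMSO.

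Few genes ran against the trend in both libraries. Among lost genes, ACAT2, KLHL35 and CRYAB were lower still in PAX8-kept cells. CRYAB, a small heat shock protein, had 57.0 and 87.2 CPM in RAC1i and 44.2 and 76.6 CPM in Combo, with 233 CPM in DMSO. Among gained genes, SIPA1L2, CDC37L1-DT, KRT80, SNHG9, CLDN6 and SNHG30 were higher still. CLDN6, an oncofetal claudin, had 39.3 and 26.4 CPM in RAC1i and 36.7 and 22.8 CPM in Combo, with 11.0 CPM in DMSO.

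Cell by cell, the lost genes made up a median of 9.71% of the UMIs of PAX8-kept cells in RAC1i (quartiles 6.94 to 12.7), against 5.80% in PAX8-0 cells and 20.2% in DMSO cells. In Combo the medians were 11.3%, 6.55% and 21.4%. Such shares weigh abundant RNAs most: among the lost genes MT-CO3 had 12703 CPM and NEAT1 10147 CPM in DMSO. The part of single abundant RNAs in these shares was not tested. In RAC1i 282 of 1496 PAX8-kept cells (18.9%) and 23 of 3091 PAX8-0 cells (0.744%) lay above the 5th percentile of DMSO cells, and in Combo 190 of 1191 (15.95%) and 17 of 2696 (0.631%). For the gained genes the cells of treatment and solvent stayed apart. These genes made up a median of 14.1% of UMIs in PAX8-kept and 19.6% in PAX8-0 cells of RAC1i and 5.48% in DMSO, and only 2 PAX8-kept cells of RAC1i and 0 of Combo lay below their 95th percentile. PAX8-kept cells were therefore not cells with the expression of DMSO cells throughout.

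**Figure D5:**
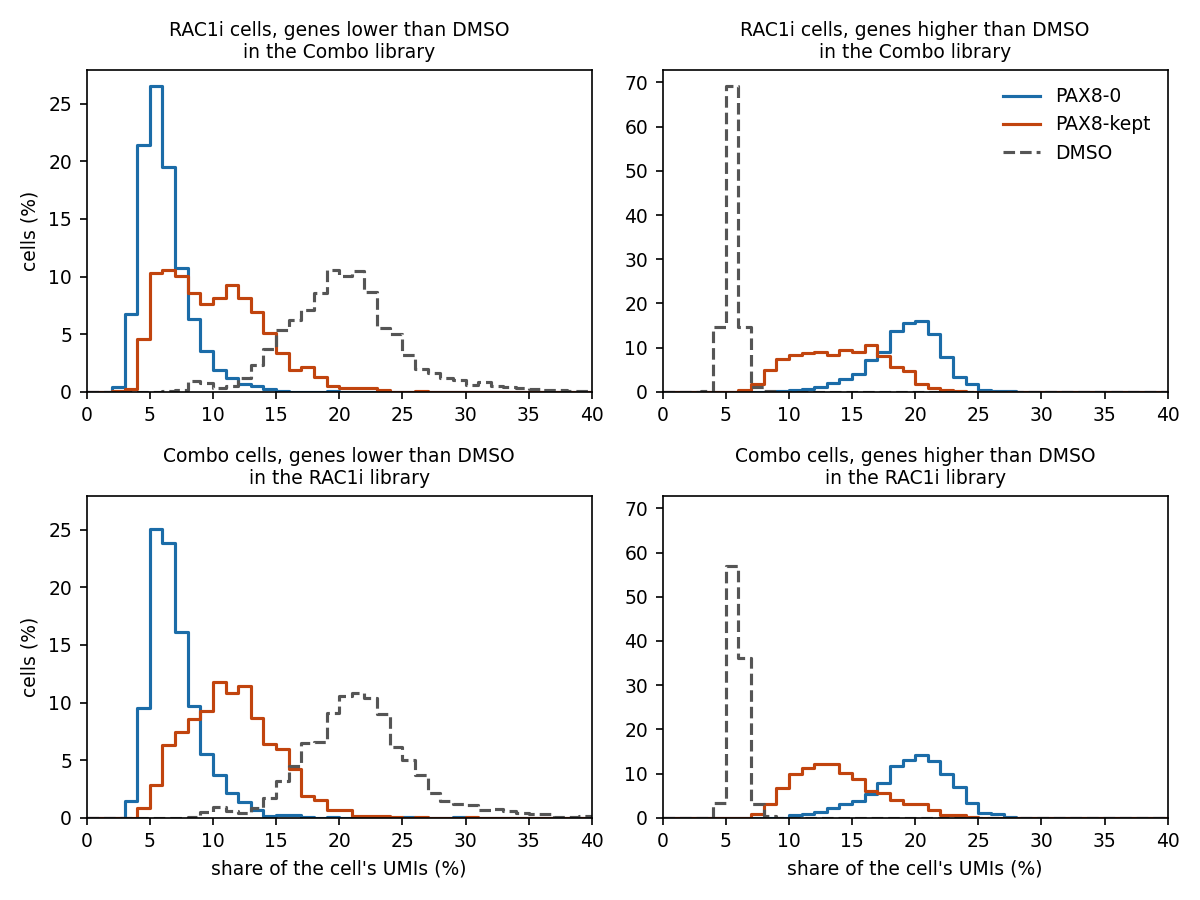
Share of cells (vertical, percent) by the share of their UMIs in the genes lower (left) or higher (right) than DMSO in the other treated library (horizontal, percent), for RAC1i cells above and Combo cells below. PAX8-kept cells (red) lie between PAX8-0 cells (blue) and DMSO cells (dashed), overlapping both on the left and almost only the PAX8-0 cells on the right.

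Levels were also read by the number of PAX8 UMIs. Over the 1734 genes higher in both libraries, the median log2 ratio to PAX8-0 cells of RAC1i was 0.20 at 1 UMI of PAX8, 0.33 at 2, 0.50 at 3 and 0.72 at 5 or more, and in Combo 0.18, 0.32, 0.47 and 0.69. Of these genes, 1153 in RAC1i and 1086 in Combo moved the same way at all 5 steps. As cells with more PAX8 UMIs are also deeper, as 3 or more UMIs chose these genes, and as a cell with 1 or 2 UMIs may hold more or less PAX8 than its count shows, this is a description and does not tell a gradual change from a mixture of cells. P2RY2 had 3.52, 6.30, 11.4, 17.4, 23.9 and 32.5 CPM in RAC1i cells with 0, 1, 2, 3, 4 and 5 or more UMIs of PAX8. GADD45B had 700, 603, 493, 387, 316 and 227 CPM in the same order. SOX17 had 8.80, 8.76, 9.43, 7.10, 9.58 and 12.4 CPM, without such steps below 5 UMIs.

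In DMSO only 21 cells had 0 UMIs of PAX8, too few to repeat the contrast. Instead the 1774 DMSO cells with 7 or more thinned PAX8 UMIs, the upper end of their range, were set against the 1559 with 3 or fewer, a comparison added after the data were seen. PAX8 itself had 523 and 213 CPM in these cells. Of 5999 genes, 158 (2.63%) were higher and 124 (2.07%) lower in the first of these groups, against 34.7% and 15.7% in RAC1i by the rule above, where PAX8 differed more. P2RY2 had 29.1 and 26.8 CPM in these cells, CD24 446 and 414 CPM, and KRT7 1133 and 1255 CPM, all within the limits. Past the higher limit were MUC16, with 163 and 117 CPM and a ratio of 1.38 (1.34 to 1.43), and, among the largest rises above, RAPGEF3 at 1.30 (1.24 to 1.37) and AFAP1 at 1.28 (1.22 to 1.34). PAX8-AS1 at 2.09 (1.90 to 2.30), KCNQ1OT1 at 1.36 (1.33 to 1.39), KDM6B at 1.29 (1.20 to 1.38) and ALDH1A1 at 1.26 (1.15 to 1.37) were higher as well, and so was ARHGAP29, with 1389 and 1107 CPM. PAX8-AS1, with 24.2 and 11.6 CPM, and ALDH1A1, with 21.5 and 17.1 CPM, reached 20 CPM only through the cells with more PAX8. GADD45B, under 20 CPM in both groups of cells, had 10.8 and 15.4 CPM, a ratio of 0.704 (0.634 to 0.782). FLG was lower, with 179 and 235 CPM, and so was EZH2, with 28.0 and 36.9 CPM. Of the 30 S phase genes measured, 21 were lower in the cells with more PAX8, among them RRM2 with 85.9 and 136 CPM and MCM4 with 55.3 and 69.8 CPM. Of the 46 G2 and mitosis genes, 18 were lower, among them CKS1B with 227 and 292 CPM.

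PAX8 lies on the minus strand of chromosome 2 at 113215997 to 113278921 (GRCh38), and PAX8-AS1 overlaps it on the plus strand at 113211421 to 113276581. PAX8-AS1 had 9.27 and 0.969 CPM in RAC1i, a ratio of 9.56 (7.57 to 12.2), 8.14 and 0.943 CPM in Combo, a ratio of 8.63 (6.76 to 11.1), and 17.5 CPM in DMSO. Cell Ranger, used with its default settings, counts only reads in the sense direction of a gene, so the pair was counted apart by strand. PSD4, an exchange factor for ARF6 and the next gene at 113157325 to 113209396, had 5.31 and 1.59 CPM in RAC1i, a ratio of 3.34 (2.72 to 4.13), and 4.93 and 1.87 CPM in Combo, a ratio of 2.63 (2.14 to 3.24). PSD4 and PAX8-AS1 were both under the 20 CPM limit. Of 110 annotated genes within 5 Mb of PAX8, 12 were measured in both libraries, 5 higher and 1 lower in both, against 31.1% and 13.0% of all genes. The medians were 0.09 over the 13 measured in RAC1i and 0.20 over the 12 in Combo, against 0.14 and 0.16 for all genes. SLC35F5 was 1.65-fold (1.54 to 1.77) and 1.79-fold (1.65 to 1.93) higher, and SLC20A1, a phosphate transporter, was 1.54-fold (1.44 to 1.64) and 1.60-fold (1.48 to 1.74) lower. With 28.0 and 17.0 CPM in RAC1i and 27.1 and 15.2 CPM in Combo, SLC35F5 was measured only through the PAX8-kept cells. In Combo SLC20A1 had 17.0 and 27.3 CPM, so there it was measured only through the PAX8-0 cells.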

How the data were processed

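OVCAR3 cells were profiled by droplet single-cell RNA sequencing (10x Genomics Chromium) in 3 libraries of 1 culture each. The authors aligned and counted the reads with Cell Ranger 4.0.0 at default settings, which count sense reads only, on GRCh38, and the deposited values are raw UMI counts per gene and cell. A cell was kept if it showed more than 1000 genes, if mitochondrial genes took no more than 20% of its UMIs, and if log10 genes over log10 UMIs exceeded 0.8. Doublets were not called. The PAX8-kept cells, the gene lists and the comparisons were chosen with earlier results of these data known.

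UMIs were summed per class and divided by the class total. Genes with 20 CPM or more in the higher class were compared, without PAX8. Ratios have conditional binomial intervals, CPM exact Poisson and shares Clopper-Pearson intervals, all at 95% and for counting error only. The text names PAX8, the 12 largest rises and falls by the smaller of the RAC1i and Combo log2 ratios, for each list the member that rose most and the one that fell most, and 17 further lineage, stemness, target and study genes. Other genes were named after their values were seen. Thinning drew UMIs without replacement with a fixed seed. Intervals and fold limits were tested on simulated class totals drawn at random from a pooled profile. That draw had no variation between cells and no choice of cells by PAX8, so it covers counting error only. TMM came from edgeR 4.0.16 (R 4.3.3), the rest from Python 3.11.15 with numpy 2.4.6, scipy 1.17.1 and pandas 2.3.3. Alternatives changed the depth, the PAX8 limit, the reference cells, the CPM minimum, the fold, the scaling and the mitochondrial limit.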

Additional observations from a re-analysis of the deposited data

How the results depend on the processing

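With 1 library per condition no library could be left out and no test was run. No paired analysis was possible because each condition has 1 library and no result comes from a test. Values are given for RAC1i, then Combo. The number of genes higher in PAX8-kept cells was 1030 and 1040 at a 1.5-fold limit, 847 and 911 at 50 CPM, 9606 and 9362 with no minimum, 1312 and 1268 with TMM, and 1302 and 1251 with median-of-ratios scaling. The number lower was 346 and 356 at 1.5-fold, 541 and 492 at 50 CPM, 6779 and 6064 with no minimum, 1449 and 1435 with TMM, and 1399 and 1349 with median of ratios. The other settings left these counts within 1.5 times of those reported.

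The median over genes lost in the other library was 0.607 and 0.595 with 2 or more PAX8 UMIs, 0.600 and 0.604 against cells with 0 to 2, 0.561 and 0.526 with TMM, 0.564 and 0.529 with median of ratios, and 0.825 in RAC1i within 15000 to 40000 UMIs. The median over gained genes was -0.560 and -0.585 with TMM and -0.549 and -0.571 with median of ratios. No setting turned the sign of these medians. The share of cells that kept PAX8 was 25.9% and 23.3% from 20000 UMIs, 18.2% and 16.3% within 15000 to 40000 UMIs, and 10.2% and 8.42% after thinning.

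Among genes given with values, SOX2, ALDH1A1, FOLR1, EZH2 and KCNQ1OT1 changed sign in 1 or both libraries under some depth settings, and RAC1 in both libraries, WWTR1 and EPCAM in RAC1i under both scalings. Medians of the S phase, RAC and actin, and PAX8 neighbor lists changed sign under both scalings, the last in RAC1i only, those of the S phase and G2 and mitosis lists at matched depth in Combo, and that of S phase at 50 CPM in RAC1i. Medians of the PRC2 list at 50 CPM, the zinc finger list with no minimum and the long nuclear RNA list under several settings did so too. The cause was not tested. WT1, SOX17, ALDH1A1 and OVGP1 had under 20 CPM in both classes, so depth limits what they show.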

Other observations

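Some genes were higher in PAX8-kept cells than in cells that never met the inhibitor. Of 4850 genes, 18 stood below DMSO in PAX8-0 cells and above it in PAX8-kept cells, past the same limits and in both treated libraries. TM4SF1, a surface tetraspanin relative, had 102 CPM in PAX8-0 and 315 CPM in PAX8-kept cells of RAC1i, 104 and 361 CPM in Combo, and 229 CPM in DMSO. GPRC5A, an orphan receptor induced by retinoic acid, had 60.2 and 179 CPM in RAC1i, 46.7 and 157 CPM in Combo, and 79.5 CPM in DMSO. TNFAIP2, which is induced by TNF, had 71.0 and 198 CPM in RAC1i, 76.9 and 197 CPM in Combo, and 137 CPM in DMSO. AURKA and STK11, a kinase that activates AMPK, were also among the 18. With PAX8-0 cells weighted to the depth of PAX8-kept cells, the log2 ratio of AURKA fell from 0.89 to 0.65 in RAC1i. In Combo it fell from 0.91 to 0.46. The 18 were not counted again at matched depth. These genes were named after their values were seen.

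The 21 deep DMSO cells with 0 UMIs of PAX8 had a median of 1.35% mitochondrial UMIs, against 6.34% over all deep DMSO cells. In their 435408 UMIs, GADD45B had 68.9 CPM, against 13.0 CPM over all deep DMSO cells, and SNHG1 had 198 CPM from 86 UMIs, against 47.5 CPM. MT2A had 98.8 CPM, against 132 CPM. Where these cells came from was not tested.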
